A study of Homo sapiens with 6 samples.

Results

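Long non-coding RNA genes that carry small nucleolar RNAs (snoRNAs) in their introns were followed through a ribosome profiling experiment in HEK293T, a cell line derived from human embryonic kidney. Members were the genes whose symbol is SNHG followed by digits only, together with GAS5, ZFAS1, DANCR and EPB41L4A-AS1. The rule found 32 genes among the 60420 gene identifiers of the deposited table. Of these, 25 passed a filter of a mean TPM (a length-scaled share of all transcripts, with each library summing to 1000000) of at least 5 over the 6 libraries, as did 9040 genes in all. The other 7 are given by their values further on. Symbols of 4 members differ in GENCODE release 29, where SNHG29 is LRRC75A-AS1, SNHG32 is C6orf48, SNHG30 is LINC02001 and SNHG31 is AC016708.1. That release types SNHG32 as protein-coding, and it was kept because the rule goes by symbol.

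The cells had been treated with an inhibitor of the arginine methyltransferase PRMT1, an inhibitor of PRMT4 (CARM1) or DMSO, the vehicle. No compound, dose or time is given in the labels, and no genetic change beyond the line itself. Each treatment had 1 library of ribosome footprints, made from RNase I-treated monosomes, and 1 library called input. Replicates are lacking (1 library per group), so every difference below describes these libraries and has no test.

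Most snoRNAs of vertebrates are cut out of introns after splicing. Box C/D snoRNAs guide ribose methylation of ribosomal RNA, box H/ACA snoRNAs guide pseudouridylation, and scaRNAs guide the same changes on spliceosomal RNAs in Cajal bodies. The host RNAs that remain after splicing hold only short reading frames, and several are known to be bound by ribosomes and then removed by nonsense-mediated decay. Many start with a C followed by a pyrimidine run, as the messages of ribosomal proteins do.

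The start regions of the 6 most abundant hosts with a promoter entry show the first bases of these RNAs, and that of SNHG19 was added after its values were seen. They come from RefSeq (GRCh38.p14) and run from 10 bases before the annotated start to the fortieth base of the transcript. Capitals mark the longest run of C or T that lies within 10 bases on either side of the start, where that run has at least 5 bases.
SNHG29 (chr17:16438977-16439026, plus strand): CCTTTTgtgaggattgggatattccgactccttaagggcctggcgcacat
SNHG16 (chr17:76557754-76557803, plus strand): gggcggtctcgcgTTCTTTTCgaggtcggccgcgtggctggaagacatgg
SNHG1 (chr11:62855846-62855895, minus strand): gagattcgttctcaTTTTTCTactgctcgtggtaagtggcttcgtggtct
SNHG5 (chr6:85678694-85678743, minus strand): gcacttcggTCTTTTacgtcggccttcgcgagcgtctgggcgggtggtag
GAS5 (chr1:173869006-173869055, minus strand): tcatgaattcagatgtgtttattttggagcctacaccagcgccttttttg
SNHG8 (chr4:118278752-118278801, plus strand): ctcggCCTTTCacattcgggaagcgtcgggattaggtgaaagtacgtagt
SNHG19 (chr16:2155319-2155368, minus strand): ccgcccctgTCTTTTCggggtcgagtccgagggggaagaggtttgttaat
A run of at least 5 pyrimidines lay in this window in 14 of the 21 hosts with an entry (66.7%), in 38.5% of all 27305 promoters and in 84.1% of 69 ribosomal protein genes. A C at the start followed by at least 4 pyrimidines, a search added after the first, was found in 6 of the 21 hosts (28.6%), against 4.04% of all promoters and 63.8% of the ribosomal protein genes. Those 6 were SNHG5, ZFAS1, SNHG19, SNHG12, SNHG4 and SNHG32. An annotated start need not be the start used in these cells.

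Across the 6 libraries the hosts took up between 0.308% and 0.38% of all transcripts. The members summed to 0.361% of TPM in footprints labelled PRMT1 inhibitor and 0.38% in footprints labelled PRMT4 inhibitor, against 0.352% in DMSO footprints. In the inputs they summed to 0.339% with the PRMT1 inhibitor label and 0.308% with the PRMT4 inhibitor label, against 0.355% in DMSO. Between 57.5% and 62.9% of that sum came from the 5 most abundant members of each library. The plot of host levels orders the hosts by their mean, which falls from 513 TPM for SNHG29 to 6.71 TPM for SNHG21.

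**Figure D1:**
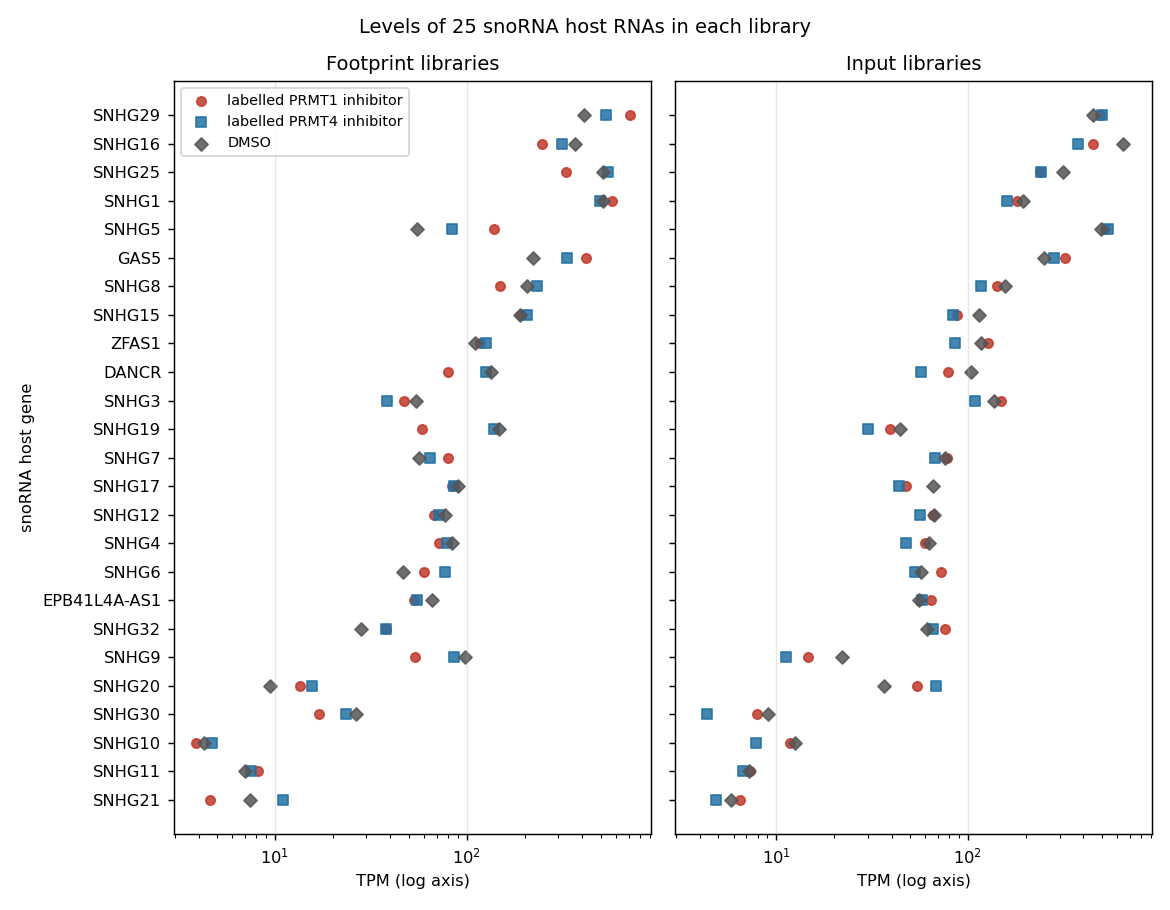
Level of each of the 25 hosts past the filter in the 3 footprint libraries (left) and the 3 input libraries (right), in TPM on a log axis, with 1 point per library and hosts ordered by mean TPM. SNHG5 stands among the most abundant hosts in the inputs, at 493 to 537 TPM, and near the middle in the footprints, at 54.8 to 138 TPM.

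Libraries of the whole series held 20485 to 21161 genes above 0 in footprints and 30576 to 30860 in inputs, and their sequencing depth is unknown because TPM keeps none. The kidney line's markers VIM (104 to 121 TPM) and KRT18 (31.5 to 37.4 TPM) were present in the inputs, KRT8 lay at 3.97 to 5.56 TPM, and CDH2, PAX2 and LHX1 lay at 1.5 TPM or below. Of the markers of other cells, ALB, PTPRC and CD3E reached at most 0.03 TPM in the inputs, and HBA1 lay at 4.07 to 7.21 TPM. Small nucleolar RNA genes made up 3.9% of TPM in footprints labelled PRMT1 inhibitor and 1.07% in those labelled PRMT4 inhibitor, against 0.838% in DMSO footprints. The log2 ratio of the PRMT1 inhibitor label to the PRMT4 inhibitor label went in opposite directions in footprints and inputs for most genes: it had the same sign in 36.1% of the 9040 tested genes (Pearson r = -0.31 across genes, which are not independent replicates) and in 9 of the 25 hosts. Whether the 2 inhibitor labels were exchanged in the inputs or in the footprints was not tested. The libraries are therefore named by their labels throughout. For footprint-to-input ratios set against DMSO, the medians over the 25 hosts are also given with the input of the other inhibitor label. So are the leading values under the PRMT1 inhibitor label.

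Ratios below are log2((TPM + 1)/(TPM + 1)), centred on the median tested gene, and 2-fold means a difference of at least 1 on that scale. The first comparison asks how host RNAs among ribosome footprints differed under the PRMT1 inhibitor label. Hosts spread widely and in both directions, with 13 above and 12 below the median tested gene, a median of 0.03 and a range of -1.17 to 1.46. SNHG5 and GAS5 were past 2-fold on the high side and SNHG19 on the low side. Of all tested genes, 3.25% reached that bound upwards and 0.575% downwards, beside 2 and 1 of the 25 hosts.

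**Figure D2:**
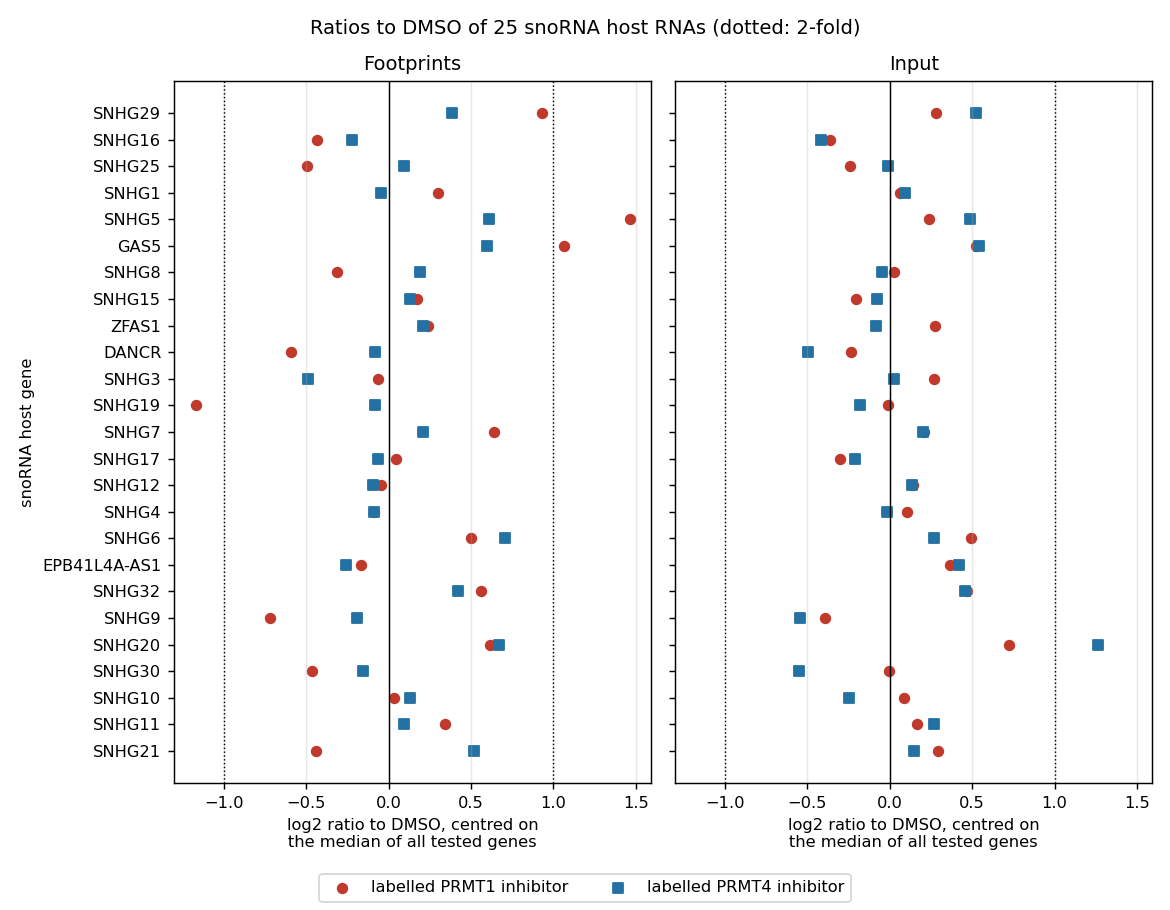
Log2 ratio to DMSO of each host in footprints (left) and input (right), centred on the median of all tested genes, with 1 point per inhibitor label and dotted lines at 2-fold. Footprint ratios under the PRMT1 inhibitor label run from -1.17 for SNHG19 to 1.46 for SNHG5, and input ratios stay within 2-fold except that of SNHG20 under the PRMT4 inhibitor label, at 1.26.

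Among hosts of box C/D snoRNAs, SNHG5 (ENSG00000203875), host of SNORD50A and SNORD50B, had 138 TPM in footprints labelled PRMT1 inhibitor and 83.8 TPM in those labelled PRMT4 inhibitor, against 54.8 TPM in DMSO footprints. In the inputs it held 521 TPM with the PRMT1 inhibitor label and 537 TPM with the PRMT4 inhibitor label, against 493 TPM in DMSO. The footprint libraries thus lay in the order PRMT1 inhibitor label, PRMT4 inhibitor label, DMSO, with ratios to DMSO of 1.46 and 0.61, while the inputs lay close together at 0.24 and 0.49. SNHG29 (ENSG00000175061), host of SNORD49A, SNORD49B and SNORD65 and the most abundant member, had 706 TPM in footprints labelled PRMT1 inhibitor and 533 TPM in those labelled PRMT4 inhibitor, against 409 TPM in DMSO footprints. Its inputs held 486 TPM and 499 TPM under the PRMT1 and PRMT4 inhibitor labels, against 447 TPM in DMSO. Its footprint ratios had that same order, at 0.93 and 0.39. In its inputs the PRMT4 inhibitor label, at 0.53, stood above the PRMT1 inhibitor label, at 0.28, and DMSO was again lowest.

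GAS5 (ENSG00000234741), isolated as an RNA that builds up in growth-arrested cells, holds 10 box C/D snoRNAs between SNORD44 and SNORD81 and SNORA103 by RefSeq. It had 419.8 TPM in footprints labelled PRMT1 inhibitor and 334 TPM in those labelled PRMT4 inhibitor, against 221 TPM in DMSO footprints. Its inputs held 319.8 TPM with the PRMT1 inhibitor label and 280.2 TPM with the PRMT4 inhibitor label, against 248 TPM in DMSO. All 4 inhibitor libraries stood above their DMSO library, with ratios of 1.07 and 0.60 in footprints and 0.52 and 0.54 in inputs. Without centring the footprint ratio under the PRMT1 inhibitor label was 0.92, under 2-fold.

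SNHG19 (ENSG00000260260), a short host of SNORD60 with a single annotated transcript of 342 bases, had 58.7 TPM in footprints labelled PRMT1 inhibitor and 139 TPM in those labelled PRMT4 inhibitor, against 148 TPM in DMSO footprints. Its inputs held 39.4 TPM and 30.1 TPM under the PRMT1 and PRMT4 inhibitor labels, against 44.4 TPM in DMSO. Only the footprints labelled PRMT1 inhibitor stood apart, with a ratio of -1.17, which lay at percentile 0.24 of the tested genes, while the other 3 ratios lay between -0.18 and -0.01. SNHG5 and SNHG19 both begin with a C and a pyrimidine run, as printed above, and their footprint ratios had opposite signs.

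The remaining box C/D hosts lay within 2-fold of the median tested gene in each comparison of an inhibitor label with DMSO. SNHG16, host of SNORD1A to SNORD1C, was lower in all 4 inhibitor libraries: footprints held 246 TPM with the PRMT1 inhibitor label and 314 TPM with the PRMT4 inhibitor label, against 368 TPM in DMSO, and inputs held 446 TPM and 373 TPM under those labels, against 642 TPM in DMSO. Its centred ratios were -0.43 and -0.22 in footprints and -0.36 and -0.42 in inputs. SNHG1, host of 8 snoRNAs from SNORD22 to SNORD31, had 573 TPM and 496 TPM in footprints labelled PRMT1 and PRMT4 inhibitor, against 515 TPM in DMSO footprints, and 181 TPM and 160 TPM in the inputs of those labels, against 194 TPM in the DMSO input. SNHG1 lay close to DMSO throughout, with ratios between -0.05 and 0.30.

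ZFAS1, antisense to the start of ZNFX1 and host of SNORD12, SNORD12B and SNORD12C, had 117 TPM and 127 TPM in footprints labelled PRMT1 and PRMT4 inhibitor, against 109.95 TPM in DMSO footprints. Its inputs held 127 TPM and 85.3 TPM under those labels, against 117 TPM in DMSO. SNHG32, host of SNORD48 and SNORD52, had 37.8 TPM in the footprints of each inhibitor label, against 28.1 TPM in DMSO footprints, and 75.9 TPM and 65.3 TPM in the inputs labelled PRMT1 and PRMT4 inhibitor, against 61.1 TPM in DMSO. ZFAS1 had ratios between -0.09 and 0.28, and the 4 ratios of SNHG32 were all positive, between 0.42 and 0.56. SNHG6, host of SNORD87, had positive ratios as well, at 0.50 and 0.71 in footprints and 0.49 and 0.27 in inputs. Its levels were 60.0 TPM and 76.7 TPM in footprints labelled PRMT1 and PRMT4 inhibitor, against 46.7 TPM in DMSO footprints, and 72.2 TPM and 53.2 TPM in inputs, against 57.1 TPM in DMSO. SNHG30, host of SNORD7, held at most 26.4 TPM in any library.

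Hosts of box H/ACA snoRNAs had a median footprint ratio under the PRMT1 inhibitor label of -0.08 over 10 genes, against 0.30 over the 9 box C/D hosts, and the ranges overlapped (-0.72 to 0.64 for H/ACA hosts and -1.17 to 1.46 for C/D hosts). SNHG8, host of SNORA24, had 149 TPM and 234 TPM in footprints labelled PRMT1 and PRMT4 inhibitor, against 205 TPM in DMSO footprints, and 142 TPM and 117 TPM in inputs, against 156 TPM in the DMSO input. SNHG15, host of SNORA9, had 193 TPM and 207 TPM in footprints labelled PRMT1 and PRMT4 inhibitor, against 189 TPM in DMSO footprints, and 87.9 TPM and 83.2 TPM in inputs, against 114 TPM in the DMSO input. The footprint ratio of SNHG8 was -0.31 with the PRMT1 inhibitor label and 0.19 with the PRMT4 inhibitor label, and those of SNHG15 were 0.17 and 0.13.

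DANCR, an RNA named for its reported block on differentiation and host of SNORA26, had 79.4 TPM and 126 TPM in footprints labelled PRMT1 and PRMT4 inhibitor, against 133 TPM in DMSO footprints, and 78.9 TPM and 56.7 TPM in inputs, against 104 TPM in the DMSO input. It was lower than DMSO in all 4 libraries, with ratios of -0.60 and -0.08 in footprints and -0.23 and -0.50 in inputs. SNHG9, host of SNORA78, was also lower than DMSO in all 4, with 53.6 TPM and 85.7 TPM in footprints labelled PRMT1 and PRMT4 inhibitor, against 98.5 TPM in DMSO footprints, and 14.7 TPM and 11.3 TPM in inputs, against 22 TPM in the DMSO input. SNHG9 had the lowest input ratio of the hosts under the PRMT1 inhibitor label, at -0.39, and a footprint ratio of -0.72.

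SNHG3 hosts SNORA73A and SNORA73B, the U17 snoRNAs that act in cleavage of the ribosomal RNA precursor. It had 46.8 TPM and 38.3 TPM in footprints labelled PRMT1 and PRMT4 inhibitor, against 54.3 TPM in DMSO footprints, and 148 TPM and 108 TPM in inputs, against 137 TPM in the DMSO input. Its footprint ratio under the PRMT4 inhibitor label, -0.49, was the lowest of the 25 hosts in that comparison. SNHG7, host of SNORA17A and SNORA17B, had 79.5 TPM and 64.7 TPM in footprints labelled PRMT1 and PRMT4 inhibitor, against 56.1 TPM in DMSO footprints, and 77.9 TPM and 67.3 TPM in inputs, against 75.5 TPM in the DMSO input. SNHG7 had the highest footprint ratio of the H/ACA hosts under the PRMT1 inhibitor label, 0.64, with 0.20 in each input.

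SNHG17 and SNHG4 lay close to DMSO in footprints under both labels, and EPB41L4A-AS1 lay lower. SNHG17, host of 4 near-identical SNORA71 copies, had 84.0 TPM and 85.7 TPM in footprints labelled PRMT1 and PRMT4 inhibitor, against 90.2 TPM in DMSO footprints, and 47.4 TPM and 43.7 TPM in inputs, against 65.7 TPM in the DMSO input. SNHG4, host of SNORA74A and SNORA74D, had 71.3 TPM and 78.5 TPM in footprints labelled PRMT1 and PRMT4 inhibitor, against 83.9 TPM in DMSO footprints, and 60.1 TPM and 47.6 TPM in inputs, against 62.4 TPM in the DMSO input. EPB41L4A-AS1, host of SNORA13, had 52.9 TPM and 54.7 TPM in footprints labelled PRMT1 and PRMT4 inhibitor, against 66.0 TPM in DMSO footprints, and 64.2 TPM and 57.6 TPM in inputs, against 55.4 TPM in the DMSO input. The footprint ratios of SNHG17 were 0.04 and -0.07 and those of SNHG4 both -0.09. Under both labels EPB41L4A-AS1 had negative ratios in footprints, at -0.17 and -0.26, and positive ones in inputs, at 0.37 and 0.42. The centred ratios of SNHG3 and SNHG12 had the same signs. In TPM, however, SNHG12 lay below DMSO in the inputs of both labels, and SNHG3 in the input labelled PRMT4 inhibitor. SNHG11, host of SNORA60 and SNORA71E, was low throughout, at 6.68 to 8.15 TPM.

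Beside GAS5, 2 hosts carry both kinds of snoRNA. SNHG25, host of SNORD104 and SNORA50C, had 327 TPM and 544 TPM in footprints labelled PRMT1 and PRMT4 inhibitor, against 511 TPM in DMSO footprints, and 236 TPM and 240.2 TPM in inputs, against 312 TPM in the DMSO input. Its footprint ratio was -0.50 with the PRMT1 inhibitor label and 0.10 with the PRMT4 inhibitor label. SNHG12, host of SNORD99 and 3 H/ACA snoRNAs, had 67.2 TPM and 71.7 TPM in footprints labelled PRMT1 and PRMT4 inhibitor, against 77.0 TPM in DMSO footprints, and 65.4 TPM and 56.3 TPM in inputs, against 66.2 TPM in the DMSO input. SNHG12 had ratios to DMSO between -0.10 and 0.14 in footprints and inputs.

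Of the scaRNA hosts past the filter, SNHG20 (ENSG00000234912), host of SCARNA16, had 13.5 TPM and 15.6 TPM in footprints labelled PRMT1 and PRMT4 inhibitor, against 9.45 TPM in DMSO footprints, and 54.2 TPM and 68.4 TPM in inputs, against 36.3 TPM in the DMSO input. SNHG20 was higher than DMSO in all 4 libraries, with ratios of 0.62 and 0.67 in footprints and 0.72 and 1.26 in inputs. Its exons overlap those of SEC14L1 on the same strand, so reads of the 2 genes could be shared. SNHG10, host of SCARNA13, held 3.86 to 12.5 TPM and SNHG21, host of SCARNA15, 4.6 to 11.0 TPM.

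In footprints labelled PRMT4 inhibitor, the hosts lay closer to DMSO than under the PRMT1 inhibitor label, with a range of -0.49 to 0.71, a median of 0.10, and 14 above and 11 below the median tested gene. The highest were SNHG6 at 0.71, SNHG20 at 0.67, SNHG5 at 0.61 and GAS5 at 0.60. None of the 25 was 2-fold higher or lower, where 0.896% of all tested genes were. Both inhibitor labels share the DMSO footprint library, so the values of a host under the 2 labels are not independent.

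The input libraries gave the second set of ratios. The labels call the RNA of every library, inputs too, ribosome-protected, and they do not say how input was prepared, so whether an input value is the total level of a host RNA is unknown. Under the PRMT1 inhibitor label, 17 hosts were above and 8 below the median tested gene, with a median of 0.14 and a range from -0.39 for SNHG9 to 0.72 for SNHG20. None was 2-fold higher or lower, where 0.819% of all tested genes were. Under the PRMT4 inhibitor label, 13 were above and 12 below, with a median of 0.03 and a range from -0.55 for SNHG30 to 1.26 for SNHG20. SNHG20 was the 1 host at least 2-fold higher, where 1.98% of all tested genes were, and without centring its ratio was 0.90. Without centring, the median of the hosts was -0.02 with the PRMT1 inhibitor label and -0.34 with the PRMT4 inhibitor label, so which way most hosts lie depends on the scale.

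Members under the filter gave little information. SNHG22, host of SCARNA17, had 3.43 TPM and 1.87 TPM in footprints labelled PRMT1 and PRMT4 inhibitor, against 1.12 TPM in DMSO footprints, and 5.74 TPM and 11.97 TPM in inputs, against 4.23 TPM in the DMSO input. SNHG26 averaged 2.88 TPM over the 6 libraries and SNHG31 0.13 TPM. SNHG28 and SNHG14, the host of the imprinted SNORD115 and SNORD116 clusters, were at 0 in all 3 footprint libraries and at 0.06 TPM or below in the inputs. SNHG18 and SNHG27 are listed at 0 in all 6 libraries.

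The ratio of footprint to input within a label describes how host RNA was shared between the libraries. It does not measure translation of RNAs that code for no known protein. Among the hosts only SNHG32 is typed as protein-coding. In DMSO the ratio covered a range from -3.23 for SNHG5 to 2.03 for SNHG9 on the centred log2 scale. SNHG9, SNHG19, SNHG30 and SNHG1 were at least 2-fold higher in footprints than in input, where 16.4% of all tested genes were. SNHG5, SNHG20, SNHG10, SNHG3 and SNHG32 were at least 2-fold lower, where 19.0% of all tested genes were. The counts of 4 and 5 of 25 hosts are near those shares. Before centring, the footprint level of SNHG5 was 0.265 of its input level with the PRMT1 inhibitor label and 0.156 with the PRMT4 inhibitor label, against 0.111 in DMSO, and it ranked last or next to last of the 25 in each treatment. SNHG9 ranked first in each treatment, at 3.65 and 7.62 times its input level under the PRMT1 and PRMT4 inhibitor labels, against 4.48 times in DMSO.

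**Figure D3:**
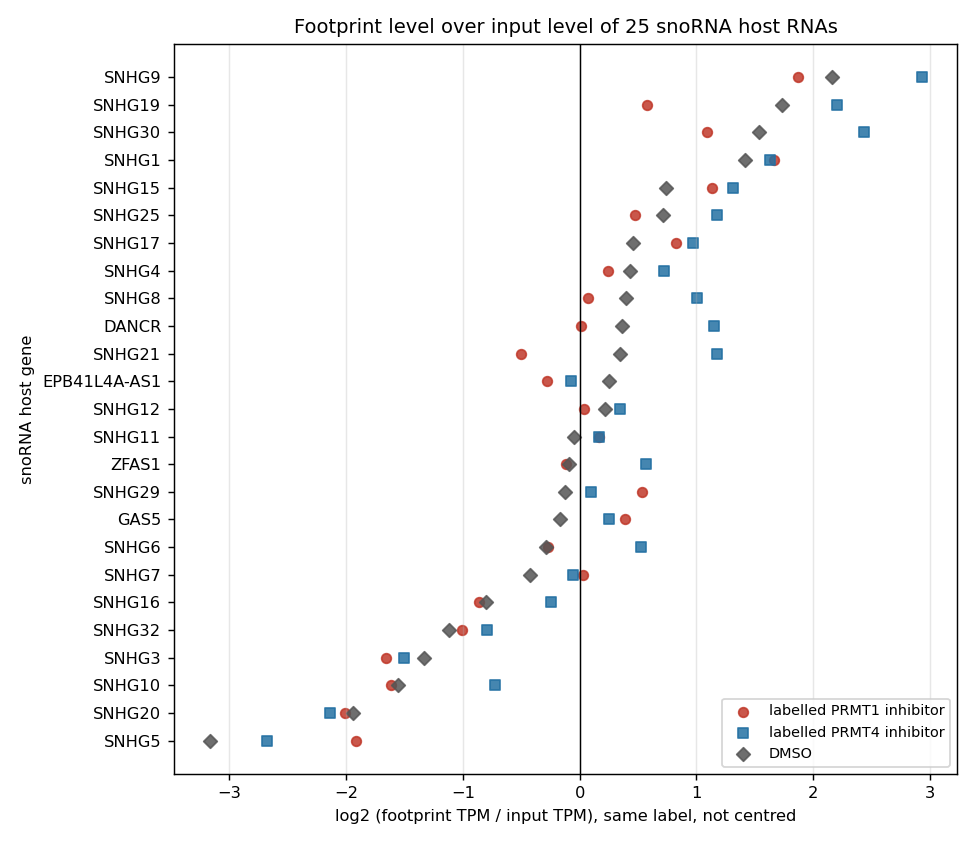
Log2 of footprint TPM over input TPM for each host under each label, not centred, with hosts ordered by the DMSO value and 1 point per treatment. The order is broadly kept between treatments, from SNHG9 at the top to SNHG5 at the bottom, and the widest gap to the left of DMSO is that of SNHG19 under the PRMT1 inhibitor label (footprint over input of 1.49, against 3.33 in DMSO).

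Set against DMSO, the footprint-to-input ratio under the PRMT1 inhibitor label had a median of -0.07 over the hosts, with 10 above and 15 below 0. SNHG5 was at least 2-fold higher, at 1.22, where 3.19% of all tested genes were, and SNHG19 was at least 2-fold lower, at -1.16, where 0.929% were. With the input of the other inhibitor label, the value of SNHG5 was 0.96, under 2-fold, and that of SNHG19 was -1.01, still past 2-fold. SNHG29, at 0.64, and GAS5, at 0.54, followed SNHG5, and with the other input they had 0.39 and 0.51. SNHG21, at -0.74, and EPB41L4A-AS1, at -0.54, followed SNHG19, and with the other input they had -0.61 and -0.60. Under the PRMT4 inhibitor label the median was 0.09, with 15 hosts above and 10 below 0, and the values ran from -0.69 for EPB41L4A-AS1 to 0.43 for SNHG6. None was 2-fold higher or lower, where 2.94% of all tested genes were, and without centring the median was 0.46. With the input of the other inhibitor label the median was 0.06 under the PRMT1 inhibitor label and 0.03 under that of PRMT4, and in the second case 0 hosts were past 2-fold.

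The snoRNAs inside the hosts were measured as genes of their own in part. Outside SNHG14, release 29 annotates 60 snoRNA or scaRNA genes inside the members on the same strand, and 27 of them were matched to a value: 23 of 26 that no exon of a host transcript contains whole, and 4 of 34 that lie within an exon of some annotated host transcript, often one that keeps the intron. SNORD7 in SNHG30 and SNORD48 in SNHG32, among the 23, overlap a host exon in part. Of these 27, 20 passed the filter in 13 hosts that also passed it. All 20 had a higher footprint ratio under the PRMT1 inhibitor label than their own host. Their median was 1.99, with a range of 0.90 to 3.47, and 19 of 20 were at least 2-fold higher, while their hosts had a median of -0.07. Over all 169 snoRNA genes past the filter, nested ones included, the median was 2.03. Of these, 132 (78.1%) were at least 2-fold higher, where 3.25% of all tested genes were. The filter averages all 6 libraries, so a snoRNA gene could pass it through high footprints labelled PRMT1 inhibitor alone, which favours high ratios there. How many did so, among the 20 or the 169, was not counted.

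Some of the hosts with the lowest footprint ratios held snoRNAs with high ones. SNORD60 had 20 TPM in footprints labelled PRMT1 inhibitor and 5.25 TPM in those labelled PRMT4 inhibitor, against 7.0 TPM in DMSO footprints, a ratio of 1.54 under the PRMT1 inhibitor label where its host SNHG19 had -1.17. SNORD104 had 124 TPM and 31.3 TPM in footprints labelled PRMT1 and PRMT4 inhibitor, against 18.8 TPM in DMSO footprints, a ratio of 2.81 where SNHG25 had -0.50. SNORA26 had 8.03 TPM and 2.71 TPM in footprints labelled PRMT1 and PRMT4 inhibitor, against 0.74 TPM in DMSO footprints, a ratio of 2.52 where DANCR had -0.60. The largest ratio, 3.47, was that of SNORD12, with 26.4 TPM and 10.3 TPM in footprints labelled PRMT1 and PRMT4 inhibitor, against 1.73 TPM in DMSO footprints, where ZFAS1 had 0.24. SnoRNA and host thus differed within the same gene in the same pair of libraries.

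**Figure D4:**
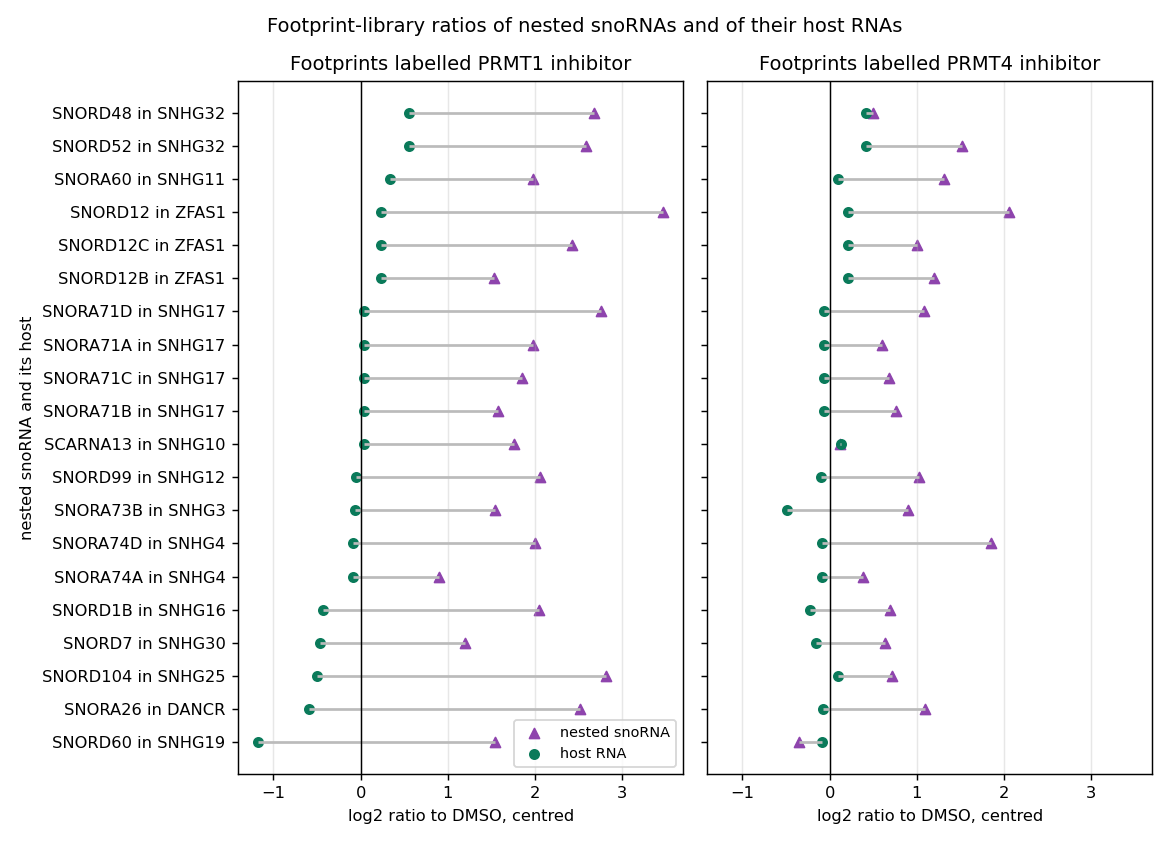
Footprint log2 ratio to DMSO of each of 20 nested snoRNAs (triangles) and of its host RNA (circles), centred on the median tested gene, under the PRMT1 inhibitor label (left) and the PRMT4 inhibitor label (right). Each triangle lies right of its circle in the left panel, and 18 of 20 do in the right panel.

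The sequences of 4 nested box C/D snoRNAs are shown, chosen after their values were seen, because the text sets them beside hosts described above: SNORD60 in SNHG19 (chromosome 16, minus strand), SNORD104 in SNHG25 (chromosome 17, plus strand), SNORD12 in ZFAS1 (chromosome 20, plus strand) and SNORD50B in SNHG5 (chromosome 6, minus strand). They were read from the transcripts of GENCODE release 29. Capitals mark the first C box (TGATGA) and the last D box (CTGA) found on the transcript strand within 20 bases of the respective end. Both boxes were found this way in 187 of 278 annotated box C/D genes (67.3%), in 0 of 147 box H/ACA genes and in 18 of the 25 box C/D genes nested in the hosts.
SNORD60: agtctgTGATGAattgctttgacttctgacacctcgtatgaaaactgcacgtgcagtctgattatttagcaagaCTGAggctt
SNORD104: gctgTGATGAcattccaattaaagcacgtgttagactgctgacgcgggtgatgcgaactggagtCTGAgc
SNORD12: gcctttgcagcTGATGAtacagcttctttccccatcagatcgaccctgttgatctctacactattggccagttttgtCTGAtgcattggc
SNORD50B: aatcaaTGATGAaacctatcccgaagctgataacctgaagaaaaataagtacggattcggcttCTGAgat
SNORD50B has no value of its own here, so its part in the SNHG5 value was not analysed.

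In footprints labelled PRMT4 inhibitor the 20 nested snoRNAs had a median of 0.83 and 18 lay above their host. In that comparison 9 of the 20 were at least 2-fold higher, where 0.642% of all tested genes and 34 of the 169 snoRNA genes (20.1%) were. In the inputs their median was 0.26 under the PRMT1 inhibitor label, with 17 above their host and 0 at least 2-fold higher, and 0.77 under the PRMT4 inhibitor label, with 19 above their host and 6 of 20 at least 2-fold higher. In that input 84 of the 169 snoRNA genes were at least 2-fold higher, where 1.98% of all tested genes were. SNORA73B, the most abundant in the inputs, had 247 TPM and 373 TPM in inputs labelled PRMT1 and PRMT4 inhibitor, against 223 TPM in the DMSO input. Copies of SNORA71 in SNHG17 are nearly identical to each other, so their separate values are uncertain. In DMSO most nested snoRNAs were lower in footprints than in input: 14 of the 20 were at least 2-fold lower and 3 at least 2-fold higher, with a median of -1.42. SNORA71D, SNORA60 and SNORD48 were the 3, at 1.74, 1.64 and 1.60. Of all tested genes, 19.0% were at least 2-fold lower and 16.4% at least 2-fold higher. Of the 169 snoRNA genes, 47.3% were lower and 21.9% higher by that bound.

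Hosts were also divided by whether an annotated host transcript contains a nested snoRNA within an exon, where a read could be assigned to either gene. The 18 hosts with such an exon had a median footprint ratio of 0.27 under the PRMT1 inhibitor label, with 12 above 0 and a range of -0.72 to 1.46. The 7 hosts without had a median of -0.44, with 1 above 0 and a range of -1.17 to 0.03. They were DANCR, EPB41L4A-AS1, SNHG4, SNHG10, SNHG19, SNHG21 and SNHG30. SNHG17 counts among the 18 through an unnamed snoRNA entry, since none of its 4 SNORA71 copies lies within an exon. With SNHG17 moved to the other side, a change made after seeing the data, the medians were 0.30 over 17 hosts, with 11 above 0, and -0.31 over 8, with 2 above 0. SNHG5, GAS5 and SNHG29, the highest 3 in that comparison, all fall among the 18, and no nested gene of theirs has a value of its own. How much of the level of those 3 hosts comes from snoRNA reads therefore cannot be told apart from the level of the spliced host RNA. The footprint-to-input ratio under the PRMT1 inhibitor label had medians of 0.05 over the 18, of which 10 were above 0, and -0.46 over the 7, of which 0 were. With SNHG17, at 0.34, on the other side, these were 0.0029 over 17, of which 9 were above 0, and -0.41 over 8, of which 1 was. With the input of the other inhibitor label, SNHG10, at 0.27, and SNHG30, at 0.07, lay above 0. The rest of the 7 stayed below 0, from -1.01 for SNHG19 to -0.09 for SNHG4. Medians of the divided hosts were not computed for that pairing.

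Exons of 13 of the 25 hosts overlap a gene on the opposite strand, for example ZNFX1 for ZFAS1 and GAS5-AS1 for GAS5, and exons of 5 overlap a gene on the same strand, for example RCC1 for SNHG3 and MATR3 for SNHG4. The sources used here do not say whether the counting used strand.

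Other hosts of snoRNAs, those typed as protein-coding and no members, spread less widely. Over 179 of them past the filter, the median was -0.07 in footprints labelled PRMT1 inhibitor and -0.01 in those labelled PRMT4 inhibitor, and 0.02 and -0.04 in the inputs of those labels, with 0 genes past 2-fold in any of the 4. Of all tested genes, 3.25% were 2-fold higher and 0.575% lower in footprints labelled PRMT1 inhibitor. In those labelled PRMT4 inhibitor 0.896% were past 2-fold. In the inputs 0.819% were past 2-fold under the PRMT1 inhibitor label, and 1.98% were 2-fold higher under that of PRMT4. In footprints labelled PRMT1 inhibitor the protein-coding hosts ran from -0.996 to 0.999, so 3 of the 25 members lay outside their span. The 229 other long non-coding genes past the filter had medians of 0.19 and 0.12 in footprints and 0.13 and 0.12 in inputs labelled PRMT1 and PRMT4 inhibitor. In footprints labelled PRMT1 inhibitor 9 of them were past 2-fold upwards and 7 downwards. Their span there, -1.38 to 3.15, covered all 25 members.

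Genes of the proteins that bind the snoRNAs lay mostly below the median tested gene in footprints and in inputs set against DMSO. The core list held the box C/D proteins FBL, NOP56, NOP58 and SNU13 and the box H/ACA proteins DKC1, GAR1, NHP2 and NOP10, of which FBL and GAR1 carry glycine- and arginine-rich stretches of the kind that type I arginine methyltransferases modify. In footprints labelled PRMT1 inhibitor 7 of 8 were below the median tested gene, with a median of -0.34, from -0.63 for FBL, the ribose methyltransferase, to 0.17 for NOP56. FBL had 290.1 TPM and 444 TPM in footprints labelled PRMT1 and PRMT4 inhibitor, against 497 TPM in DMSO footprints. In the input labelled PRMT4 inhibitor all 8 were below it, with a median of -0.38, and in the input labelled PRMT1 inhibitor 6 of 8 were. In footprints labelled PRMT4 inhibitor 5 of 8 were below it, with a median of -0.13. The footprint-to-input ratio of the core list went the other way under the PRMT4 inhibitor label, with 7 of 8 above 0 and a median of 0.28. Under the PRMT1 inhibitor label 1 of 8 was above 0. Both counts pair footprints with the input of the same label. The input of the other inhibitor label was not tried for this list, so whether the contrast depends on the pairing was not tested. None was 2-fold lower in any comparison with DMSO, where 0.575% of all tested genes were in footprints labelled PRMT1 inhibitor.

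Assembly factors, of which 7 of 8 passed the filter, had a median of -0.22 in footprints labelled PRMT1 inhibitor, from -0.92 for SHQ1, a chaperone of DKC1, to 0.43 for ZNHIT3. Factors of nonsense-mediated decay, the pathway that removes several host RNAs, had a median of 0.17 over 9 of 10 genes in the same footprints, from -0.31 for UPF1 to 0.71 for SMG1, a kinase of UPF1. In the input labelled PRMT4 inhibitor UPF3A and UPF1 were the highest of that list, at 0.72 and 0.70. The footprint-to-input ratio of the assembly factors was above 0 in 7 of 7 under the PRMT4 inhibitor label and in 3 of 7 under that of PRMT1. Here too only the input of the same label was used, and dependence on that pairing was not tested.

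The lengths of the reading frames bear on what footprints could cover. In the longest annotated transcript of each of the 25 hosts, the longest reading frame from an ATG had a median of 64 codons, from 0 for SNHG9 to 181 for SNHG7, against a median of 76 codons in 229 other long non-coding genes. The longest transcripts themselves had medians of 1662 bases in the hosts and 1594 bases in the other genes. SNHG9, SNHG19 and SNHG25, whose longest transcripts are 471, 342 and 278 bases, had reading frames of at most 17 codons and footprint levels above their input levels in every treatment. So did 8 other hosts with longer frames, 11 of 25 in all, among them SNHG15 with 98 codons, SNHG17 with 87 and SNHG1 with 57. The share of all tested genes that did so was not counted, so the 11 cannot be read as a trait of the hosts. Before centring, the median tested gene itself lay above its input in DMSO, at a log2 ratio of 0.09. Set against DMSO, the uncentred median ratio of all tested genes was 0.02 and 0.37 under the PRMT1 and PRMT4 inhibitor labels. Across the 25 hosts, the DMSO footprint-to-input ratio had a Spearman correlation of -0.40 with the reading frame length and -0.29 with the median transcript length, given as a description of genes that share the same libraries.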

How the data were processed

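The deposited table gives TPM per gene and library as computed by the authors. Per the submitters' processing notes, reads were handled with STAR 2.4.2a, Bowtie 1.1.2, RSEM 1.2.22 and cutadapt 1.18 on GRCh37.p13, with no role stated for each. RNase I digestion of lysates, monosomes from sucrose gradients and a small RNA library procedure are given per the labels' protocols. The preparation of the input is not stated there. TPM divides by length and library total, so it keeps no depth, and a rise of some RNAs lowers the share of the rest. The effective lengths, on which values of RNAs as short as snoRNAs depend, are not given.

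Of 60461 rows, 41 Y-chromosome copies at 0 were dropped. Symbols, gene types and nesting came from GENCODE release 29 and RefSeq tables of a later build, so no coordinates were joined to the values. Log2 ratios used a pseudocount of 1, which understates changes of low genes, a filter of mean TPM of at least 5, and centring on the median tested gene, with Python 3.11.15, numpy 2.4.6, pandas 2.3.3 and scipy 1.17.1. The steps were checked on simulated data with changes placed only in abundant genes, so the check does not cover hosts and snoRNAs of low level. With 1 library per group no p-value was computed. All hosts past the filter were named, with full values at a mean TPM of at least 20 or past 2-fold. Of the protein lists the highest and lowest members were named. Members and lists were chosen with earlier results of these data known. Alternatives changed the pseudocount, filter, centring, scaling, hosts kept and paired input.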

Additional observations from a re-analysis of the deposited data

How the results depend on the processing

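The median of the hosts moved by over 0.1 (log2), or their count past 2-fold by over 1.5 times, in the following settings, and no called host changed sign. With no filter on low values the medians were 0.018 and -0.20 for the inputs labelled PRMT1 and PRMT4 inhibitor, 0.41 for the footprint-to-input ratio labelled PRMT4 inhibitor and -0.0009 for footprints over input in DMSO. With no centring they were -0.018 and -0.34 for the inputs labelled PRMT1 and PRMT4 inhibitor, -0.11 for footprints labelled PRMT1 inhibitor and 0.46 for the footprint-to-input ratio labelled PRMT4 inhibitor. The centring value removed there was -0.16, -0.37, -0.15 and 0.37 in the same order. A scaling without small and mitochondrial RNA and without centring, chosen after seeing the data, gave -0.25 and 0.40 for the input and for that ratio under the PRMT4 inhibitor label. The 7 hosts with no nested snoRNA within an exon gave a median of -0.18 in the PRMT4-labelled input, -0.44 and -0.084 for footprints labelled PRMT1 and PRMT4 inhibitor, -0.46 and 0.36 for the footprint-to-input ratios of those labels, and 0.27 for DMSO. With SNHG17 added to them, a setting chosen after seeing the data, the medians were 0.0395 and -0.20 for the inputs labelled PRMT1 and PRMT4 inhibitor, -0.31 and -0.082 for the footprints, -0.41 and 0.25 for the footprint-to-input ratios, and 0.30 for DMSO, with the same counts past 2-fold as for the 7. With the other label's input the ratio labelled PRMT1 inhibitor had a median of 0.061.

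Counts past 2-fold in the input labelled PRMT4 inhibitor were 2 with a mean TPM of at least 1, and 0 without centring, under both scalings, and among the 7 hosts. Among those 7, counts were 1 in footprints labelled PRMT1 inhibitor, 1 in its footprint-to-input ratio and 3 in DMSO. That ratio had a count of 1 with the other label's input, and the ratio labelled PRMT4 inhibitor 1 with a mean TPM of at least 1. Pseudocounts of 0.1 and 5 and centring on protein-coding genes kept all 6 single-host calls. Signs of single hosts, called or not, were less stable. Of 150 host ratios to DMSO, 21 changed sign with no filter on low values and 21 with no centring. Scaling without small and mitochondrial RNA and without centring changed 17, and each other setting over the 150 changed at most 6. With the other label's input, 7 of 50 footprint-to-input ratios changed sign. SNHG5 and SNHG19 stayed past 2-fold in footprints labelled PRMT1 inhibitor in 8 of 8 alternatives, GAS5 in 6 of 8 (lowest 0.92), and SNHG20 in the input labelled PRMT4 inhibitor in 5 of 8 (lowest 0.90). Except where fewer hosts entered, the cause was not tested. No paired analysis was possible because each group has 1 library and no replicate could be left out.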
